A study of Homo sapiens with 23 samples.

Results

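The comparison described here is of nascent transcription in T47D cells after 4 h of TRPS1 degradation against cells that received the vehicle. T47D is a luminal breast cancer line that expresses the estrogen receptor. All cells were of clone 28, a single clone with a degron tag on its own copy of TRPS1. Per the study's methods, such a clone makes tagged TRPS1 protein alone and has other genomic copies of the gene disrupted. The DMSO cells carry the same edited alleles as the treated cells. The treated group received 50 nM dTAG-13 and 50 nM dTAG-V-1 (together called dTAG) for 4 h. The control group received 0.1% DMSO for 24 h. The length of treatment thus differs between the groups, and its effect cannot be told apart from that of TRPS1 loss. All libraries of the series are of this clone, so effects of the dTAG molecules apart from TRPS1 loss cannot be told apart either. The members are the 4 libraries of the 4 h group and the 4 DMSO libraries, 8 of the 23 libraries in the series, chosen by their titles. The other 15 libraries, from 0.5, 1, 2 and 24 h of dTAG, entered the model to estimate the spread between replicates, and the 2 h and 24 h groups are compared with 4 h where the difference between times was tested. All replicates were dishes of this clone, with the hours of treatment and harvest shifted within 1 day, so p-values measure the spread between such dishes and not between clones.

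TRPS1 is an atypical member of the GATA family of zinc finger factors. It binds the GATA sequence like its relatives, but it is known mainly as a repressor of transcription, and in the breast it is expressed in luminal cells. The dTAG molecules bind the tag with one end and a ubiquitin ligase with the other (cereblon for dTAG-13, VHL for dTAG-V-1), and the tagged protein is then degraded by the proteasome. The assay was precision run-on sequencing (PRO-seq): RNA polymerases that are engaged on DNA add a labelled nucleotide to the RNA they are making. A read therefore marks a polymerase on a gene, not a finished mRNA. Levels are given as CPM (counts scaled to a common library size), the deposited counts divided by each library's scaled total, and they compare libraries for a gene, not genes with each other, because they are not divided by gene length.

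The 8 libraries held between 4408540 and 13910400 counts. Replicate 1 at 4 h was the smallest of them and of the whole series, at 44.4% of the median of the 8. In that library 6.5% of counts came from genes on mitochondrial DNA, against 2.11% to 3.13% in the other 4 h libraries and 2.47% to 3.25% under DMSO. The mean difference of 0.646 percentage points was not larger than the spread (higher in 2 of 4 pairs, exact two-sided sign-flip permutation test over the 4 pairs, p = 0.75, where the smallest p the design allows is 0.13). Markers of luminal epithelium summed to 15574 to 18270.3 CPM under DMSO and 15646 to 18404 CPM at 4 h, with all 12 detected. Leukocyte markers summed to 15.2 to 20.9 and 11.6 to 18.1 CPM, and endothelial markers to at most 7.86 CPM in any library. The basal keratins KRT5, KRT14 and KRT17 and the stromal genes COL1A2, DCN, LUM and PDGFRB stayed under 10 counts in every library. Other members of these lists were present. The 7 basal and myoepithelial markers summed to 43.8 to 48.4 CPM under DMSO and 46.8 to 61.9 CPM at 4 h. Of them 3 were tested, 2 had a mean of at least 100 counts and 1 was called higher. The 6 stromal markers summed to 15.7 to 17.4 and 13.9 to 18.2 CPM, with 2 tested and 0 called.

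After 4 h of dTAG, 403 genes were transcribed more and 247 less than under DMSO, of 26057 genes with enough counts to test. That is 2.49% of the tested genes in both directions together, 1.55% called higher and 0.948% called lower. A gene was called at a false discovery rate (FDR) under 0.1, where FDR is the p-value of edgeR's quasi-likelihood test, with the replicate number as a block, after Benjamini-Hochberg adjustment over all tested genes. The changes were small: the median gene among those called higher rose by 18.2%, and the median gene among those called lower fell by 16.4%. On the log2 scale 52 called genes were up by more than 0.5 and 22 were down by more than 0.5. Of the 650 called genes, 620 moved the same way in all 4 same-numbered pairs, and for 429 the 4 h libraries did not overlap the DMSO libraries at all (66% of the called genes). Over all tested genes, 17.1% moved one way in 4 of 4 pairs and 4.43% did not overlap. The test itself selects genes whose pairs move alike, so these counts are a description of the calls. In a bulk culture, a change in polymerases per cell and a change in the share of cells that transcribe a gene cannot be told apart.

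**Figure D1:**
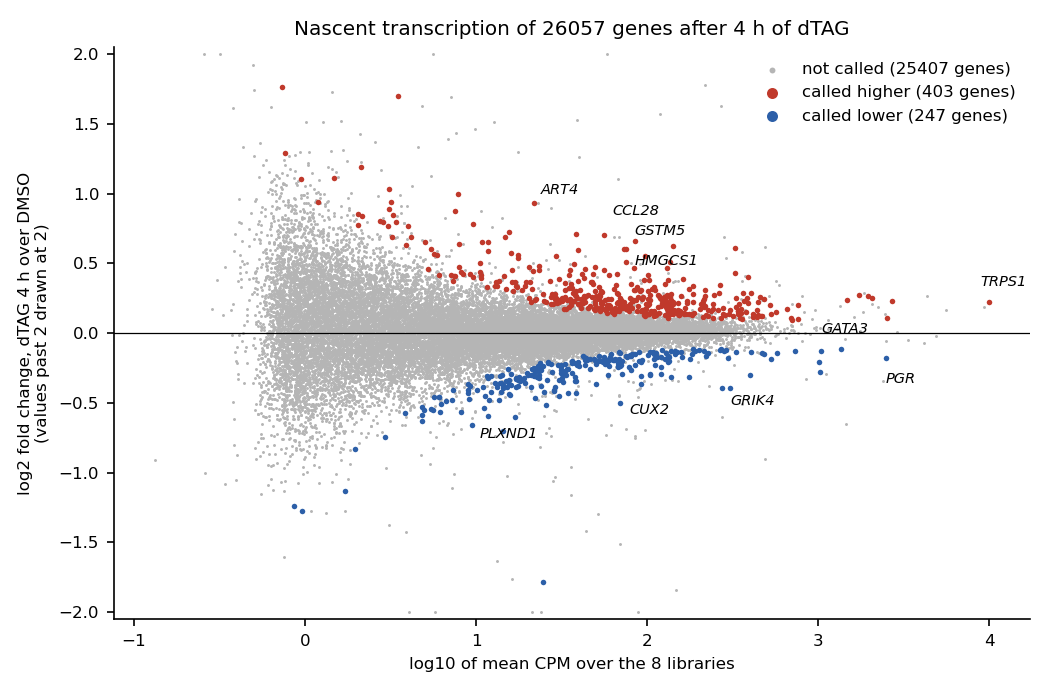
Each point is a gene, with the log10 of its mean CPM over the 8 libraries on the x axis and the log2 fold change of 4 h over DMSO on the y axis. The 403 genes called higher (red) and the 247 called lower (blue) mostly lie within 0.5 of 0, and TRPS1, at the far right, lies above 0.

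The replicate number mattered for how many genes were called. Without the replicate block 217 genes were called (0.833% of those tested), and 216 of them were among the 650. Scaling the libraries by total counts in place of TMM factors gave 215 genes higher and 269 lower, so the lean towards higher transcription depends on that scaling, although the median of all genes moved only from 0.012 to -0.019 on the log2 scale. With the smallest library left out, 569 genes were called, 481 of them among the 650, and all 650 kept their sign. The remaining libraries are the same in both fits, so a change of sign was unlikely from the start.

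TRPS1 itself was transcribed more, not less, after 4 h. Its gene (chr8:115408496-115809673 on hg38, minus strand) read 9171, 7997, 10157 and 9359 CPM in DMSO replicates 1 to 4 and 10775, 9821, 11025 and 10994 CPM in 4 h replicates 1 to 4. The 4 h value was the higher one in all 4 pairs, although replicate 2 at 4 h lay below replicate 3 under DMSO. The log2 fold change was 0.22 ± 0.034 (SE), with an FDR of 0.000434, and without the replicate block the FDR was 0.472. Because the degron acts on the protein, the transcription of the gene does not report how much TRPS1 was degraded.

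Of the GATA factors, GATA3, a defining factor of luminal breast cells, fell in all 4 pairs, from 1113, 1078, 1092 and 1077 CPM to 1006, 992, 984 and 999 CPM. Its log2 change was -0.13 ± 0.025 (FDR = 0.00371), a fall of 8.70%. GATA2, GATA4, GATA5 and GATA6 were not called (log2 changes of -0.16, 0.12, -0.40 and 0.31), and GATA1 had too few counts to test.

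The gene with the largest rise, among called genes with a mean of at least 100 counts and the same direction in all 4 pairs, was ART4, which encodes an ADP-ribosyltransferase that carries the Dombrock blood group antigen. ART4 read 13.9, 12.6, 17.6 and 15.6 CPM in the 4 DMSO libraries and 23.9, 26.5, 31.6 and 32.1 CPM in the 4 h libraries. The groups did not overlap, and the log2 change was 0.93 ± 0.07 (FDR = 2.69e-08). Its promoter and that of ANO1, which fell, are shown because they hold the letters AGATAA or TGATAA on either strand. They are the 2 that do so among the 12 promoters found for the 20 genes with the largest changes. GATA factors bind these letters and also AGATAG and TGATAG, which were not searched or marked. Printed are the 250 bases before the gene start in RefSeq (GRCh38.p14), with the matched letters in capitals. The stretches are chr12:14843527-14843776 on the minus strand and chr11:69985657-69985906 on the plus strand.
ART4: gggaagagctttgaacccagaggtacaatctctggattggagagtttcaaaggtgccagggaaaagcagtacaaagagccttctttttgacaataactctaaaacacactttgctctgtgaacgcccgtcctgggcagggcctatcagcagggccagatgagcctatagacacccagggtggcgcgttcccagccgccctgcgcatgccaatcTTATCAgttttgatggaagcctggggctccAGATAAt
ANO1: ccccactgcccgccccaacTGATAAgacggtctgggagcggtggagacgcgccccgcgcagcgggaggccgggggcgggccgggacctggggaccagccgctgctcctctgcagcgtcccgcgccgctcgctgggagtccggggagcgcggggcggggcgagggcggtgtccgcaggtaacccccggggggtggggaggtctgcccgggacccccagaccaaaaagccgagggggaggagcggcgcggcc
The matches in ART4 begin 37 and 7 bases before the gene start, and the one in ANO1 begins 231 bases before it. Among all tested genes with a promoter in the table, 9.97% held such a match within 300 bases.

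Next in size came CYP4B1, a cytochrome P450 that oxidises fatty acids, with 12.1, 14.1, 11.02 and 10.2 CPM under DMSO and 17.3, 18.6, 19.2 and 21.7 CPM at 4 h (log2 change 0.72 ± 0.092, FDR = 5.21e-05). ZNF692, a zinc finger transcription factor, went from 26.6, 32.8, 28.6 and 27.4 CPM to 50.2, 51.1, 42.98 and 46.4 CPM (log2 change 0.71 ± 0.058). CCL28, a chemokine of mucosal epithelium, went from 40.3, 36.2, 45.9 and 46.7 CPM to 77.6, 58.3, 70.5 and 72.8 CPM (log2 change 0.70 ± 0.053). In each of these 3 genes the lowest 4 h library was above the highest DMSO library.

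VCAN, which encodes the matrix proteoglycan versican, rose from 12.5, 11.1, 12.4 and 9.57 CPM to 16.2, 18.3, 19.1 and 18.8 CPM (log2 change 0.69 ± 0.088). FLRT3, a membrane protein that binds FGF receptors and the adhesion receptors called latrophilins, rose from 7.54, 7.54, 10.4 and 10.9 CPM to 14.6, 12.8, 15.3 and 15.4 CPM (log2 change 0.65 ± 0.10). FLRT3 lies inside an intron of the larger gene MACROD2 on the opposite strand. The remaining 4 of the 10 largest rises were genes without a symbol, ENSG00000266850 (log2 change 0.66), ENSG00000259345 (0.62), ENSG00000284418 (0.61) and ENSG00000241720 (0.60). ENSG00000266850 overlaps ENSG00000265943 on the same strand and can share reads with it, and it overlaps RBBP8 on the opposite strand. These 3 genes are neighbours on chromosome 18 and were all called higher. ENSG00000284418 spans 735185 bases of chromosome 9 and rose from 266, 225, 278 and 268 CPM to 415, 369.7, 393 and 399.8 CPM.

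The 3 genes with the smallest p-values were ENSG00000284418, GSTM5 and ENSG00000241720 (FDR = 1.31e-08, 1.31e-08 and 1.31e-08). GSTM5, a glutathione S-transferase of the mu class, read 64.5, 58.99, 59.8 and 54.02 CPM under DMSO and 102, 87.98, 88.3 and 83.9 CPM at 4 h. ENSG00000241720 lies within the GSTM5 span on the same strand and held nearly the same reads (63.5, 57.5, 58.8 and 52.5 CPM, then 100.1, 86.05, 86.9 and 81.8 CPM), so both values come from 1 stretch of transcription and cannot be assigned to either gene. The neighbouring GSTM3, on the opposite strand, also rose (log2 change 0.24, FDR = 0.00726). GSTM1, GSTM2 and GSTM4 were not called, with log2 changes of 0.43, 0.18 and 0.11. The GSTM genes are close paralogs, so the split of reads among them is uncertain.

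Among the 10 largest falls by the same rule was RBBP8NL. RBBP8NL, a gene related in sequence to the DNA repair gene RBBP8, read 19.8, 23.05, 17.6 and 21.6 CPM under DMSO and 10.9, 14.7, 13.4 and 14.1 CPM at 4 h, without overlap (log2 change -0.60 ± 0.095, FDR = 0.000624). RBBP8 itself rose by 0.40 (FDR = 3.43e-07). PLXND1, the plexin D1 receptor for semaphorins, fell from 11.96, 16.2, 13.7 and 15.2 CPM to 8.76, 9.08, 9.71 and 10.1 CPM (log2 change -0.60 ± 0.088). ANO1, a calcium-activated chloride channel that is often amplified in breast cancer, fell from 31.03, 33.9, 28.6 and 27.4 CPM to 24.2, 22.4, 20.8 and 17.9 CPM (log2 change -0.52 ± 0.069).

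CUX2, a homeobox transcription factor, had the deepest coverage of the 10 largest falls, with 80.7, 89.03, 80.6 and 76.8 CPM under DMSO and 57.4, 59.01, 53.9 and 61.2 CPM at 4 h (log2 change -0.50 ± 0.058, FDR = 1.72e-05). NKAIN1, which encodes a partner of the sodium-potassium pump, changed by -0.53 ± 0.10. CAMK2N1, an inhibitor of the kinase CaMKII, changed by -0.48 ± 0.11. DUSP15, a dual-specificity phosphatase, changed by -0.48 ± 0.083. DENND3, an activator of Rab12, changed by -0.45 ± 0.099, and YEATS2-AS1, a transcript antisense to YEATS2, by -0.47 ± 0.078. The largest fitted fall, -0.70, was of MTCO1P53, a copy of a mitochondrial gene on the X chromosome. Its reads cannot be separated with certainty from those of the mitochondrial gene, and without the replicate block its FDR was 0.421.

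Some called genes were neighbours. On chromosome 19, 8 of 12 tested ZNF genes between ZNF577 and ZNF480 rose and none fell, a stretch chosen after the values were seen. The members called were ZNF577, ZNF613, ZNF350, ZNF615, ZNF614, ZNF432, ZNF841 and ZNF616, which encode zinc finger proteins of the KRAB class or close to it. Their log2 changes lay between 0.24 and 0.43, and the other 4 (ZNF649, ZNF836, ZNF766 and ZNF480) had log2 changes between -0.0054 and 0.20. ZNF350 (chr19:51964340-51986856) read 56.8, 55.4, 59.98 and 55.4 CPM under DMSO and 84.5, 76.3, 76.9 and 71.2 CPM at 4 h. Outside this stretch, 7 of 448 tested ZNF genes rose, close to the 1.55% of all tested genes that were called higher. Without the replicate block ZNF615 and ZNF841 were not called (FDR = 0.368 and 0.546). ZNF432 and ZNF841 overlap on the same strand and share reads.

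Next to these zinc finger genes, the formyl peptide receptors FPR1 and FPR3, which sense bacterial peptides on white blood cells, were also higher at 4 h at low counts. FPR1 read 3.99, 5.49, 5.30 and 6.35 CPM under DMSO and 8.23, 11.3, 13.3 and 8.71 CPM at 4 h (log2 change 1.00 ± 0.16, FDR = 0.00053). FPR3 read 4.98, 5.62, 4.65 and 6.15 CPM and then 10.1, 10.5, 10.5 and 8.16 CPM (log2 change 0.88 ± 0.13, FDR = 0.000217). The leukocyte markers CD3E, CD14 and LYZ stayed under 10 counts in every library. On chromosome 12, MGP, which encodes the matrix Gla protein and lies beside ART4, rose by 0.27 (FDR = 0.00705). On chromosome 5, HMGCS1, CCL28 and TMEM267 follow each other and all rose, TMEM267 by 0.16 (FDR = 0.0317).

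Of the genes of cholesterol synthesis, 12 of 21 rose and none fell. The pathway builds cholesterol from acetyl-CoA through mevalonate and squalene, and its genes are known targets of the sterol-sensing factor SREBP2, the product of SREBF2. All 21 members described were tested, and those called higher were 57.1% of them, where 1.55% of all tested genes were called higher. The median log2 change over the list was 0.23, against 0.012 over all tested genes. The median ratios of the 4 pairs were 0.189, 0.249, 0.25 and 0.177 on the log2 scale, so the smallest library did not stand apart. With it left out 12 of the 21 were again called higher, and without the replicate block 6 were called.

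HMGCS1, which makes HMG-CoA, an early intermediate, was the member that rose the most. It read 64.3, 58.99, 63.7 and 60.9 CPM under DMSO and 89.8, 88.1, 91.98 and 83.5 CPM at 4 h (log2 change 0.51 ± 0.039, FDR = 3.13e-08). The 2 sets of libraries were wholly apart. In the mevalonate branch MVK (0.30), IDI1 (0.25) and FDPS (0.18) also rose.

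In the steps from squalene onwards, SQLE, the squalene epoxidase, went from 44.6, 43.8, 41.7 and 38.8 CPM to 58.4, 55.8, 53.1 and 48.6 CPM (log2 change 0.35 ± 0.045). MSMO1, which removes methyl groups from the sterol ring, went from 27.2, 31.1, 33.9 and 26.8 CPM to 41.7, 39.9, 42.4 and 36.7 CPM (log2 change 0.42 ± 0.063). DHCR7, the reductase of the last step of one branch, went from 56.7, 60.2, 56.7 and 58.3 CPM to 71.4, 80.5, 70.9 and 72.2 CPM (log2 change 0.35 ± 0.045). None of these 3 had overlapping groups.

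FDFT1 (0.21), LSS (0.37), CYP51A1 (0.23), HSD17B7 (0.31) and SC5D (0.24) completed the 12. CYP51A1 shares reads with ENSG00000285772, which overlaps it on the same strand. The 9 members not called had log2 changes between -0.047 (TM7SF2) and 0.23 (MVD), and 6 of these 9 were above 0.

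**Figure D2:**
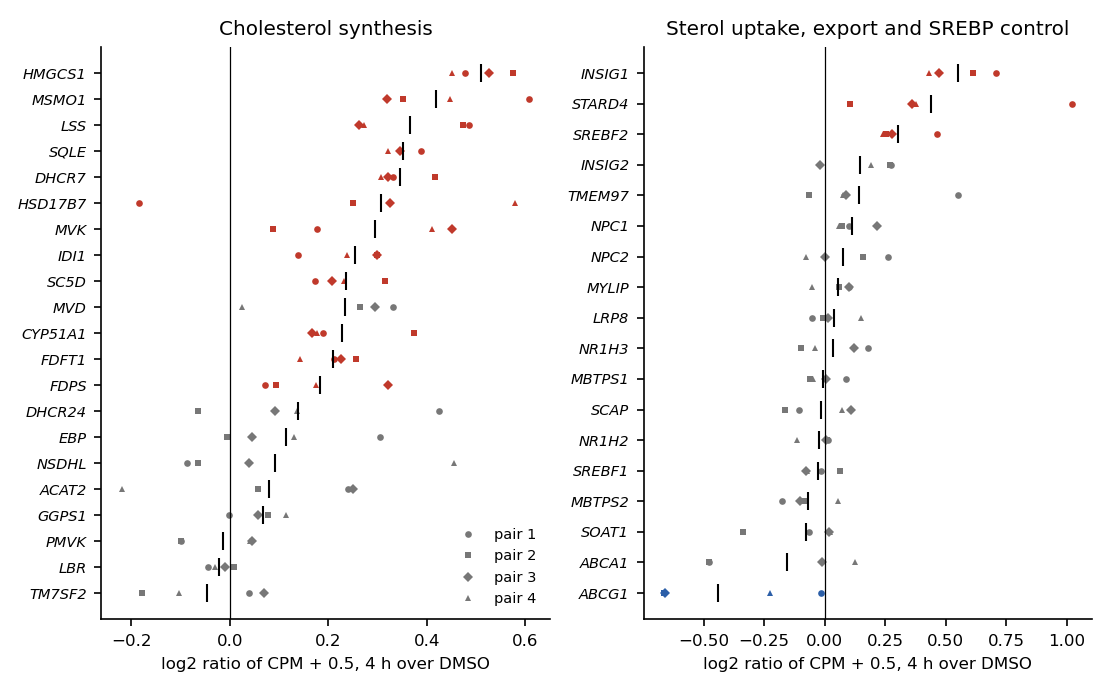
For each gene of 2 sterol lists, the 4 symbols are the log2 ratios of CPM + 0.5 in the same-numbered pairs of 4 h and DMSO libraries, and the black tick is the fitted log2 change. Red symbols mark genes called higher, blue symbols genes called lower and grey symbols genes not called, and HMGCS1 lies highest among the synthesis genes while ABCG1 lies lowest among the uptake, export and control genes.

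Control and transport of sterols moved in both directions. Of 18 tested members, 3 were called higher (16.7%, against 1.55% of all tested genes) and 1 lower (5.56%, against 0.948%). The median log2 change was 0.035. INSIG1, which holds the SREBP complex in the endoplasmic reticulum and is itself an SREBP target, rose from 21.8, 26.1, 22.1 and 24.1 CPM to 35.9, 40.1, 30.9 and 32.7 CPM (log2 change 0.55 ± 0.076, FDR = 0.000133). The lowest 4 h library lay above the highest DMSO library.

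SREBF2 rose from 92.2, 87.2, 91.98 and 91.9 CPM to 127, 104, 112 and 109 CPM (log2 change 0.30 ± 0.05), with the highest value in replicate 1 at 4 h. STARD4, a sterol carrier, rose by 0.44 ± 0.11 (FDR = 0.0426, and 0.114 without the smallest library). The member that fell, ABCG1, exports cholesterol from cells and is a known target of the oxysterol receptors LXR. ABCG1 read 19.1, 17.4, 18.1 and 16.4 CPM under DMSO and 18.9, 10.8, 11.3 and 13.97 CPM at 4 h. Replicate 1 at 4 h sat at the DMSO level and the other 3 libraries below it, and the log2 change was -0.44 ± 0.11 (FDR = 0.0465, 0.178 without the block and 0.00157 without replicate 1 at 4 h). ABCA1, the other exporter on the list, had a log2 change of -0.16 and SREBF1, the gene of SREBP1, of -0.026, both not called.

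The promoter of SREBF2 is shown because it was the one among 13 called sterol genes with a promoter in the table to hold the sterol regulatory element TCACNCCAC, searched on both strands within 300 bases. It is given from RefSeq (GRCh38.p14) as the 250 bases before the gene start, chr22:41832855-41833104 on the plus strand, with the element in capitals.
SREBF2: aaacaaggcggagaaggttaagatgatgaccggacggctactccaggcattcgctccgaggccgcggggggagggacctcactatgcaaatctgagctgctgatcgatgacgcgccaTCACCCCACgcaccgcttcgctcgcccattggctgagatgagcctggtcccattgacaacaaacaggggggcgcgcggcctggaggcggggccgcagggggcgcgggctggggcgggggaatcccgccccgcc
The element begins 133 bases before the gene start. It was present in 1.07% of the promoters of all tested genes, in 5 of 280 promoters of genes called higher (1.79%) and in 1 of 165 of genes called lower (0.606%). No match says only that these letters were not in the window. The nuclear receptor half-site AGGTCA was found in 12.5% of promoters of genes called higher, 12.1% of those called lower and 10.4% of those of all tested genes. The letters AGATAA or TGATAA were found in 12.9%, 9.09% and 9.97% of the same 3 groups.

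Among genes of fatty acid synthesis and desaturation, many of them also SREBP targets, the called members were all higher. Of 19 tested, 6 were called higher (31.6%, against 1.55% of all tested genes) and 0 lower, with a median log2 change of 0.14, and without the replicate block 3 were called. SCD, the desaturase that makes oleic acid, read 118, 119, 94.1 and 105 CPM under DMSO and 219, 135, 128 and 134 CPM at 4 h. Replicate 1 at 4 h was far above the other 3, and without it the log2 change went from 0.46 ± 0.076 to 0.36 (FDR = 0.000964 and 0.00223). LPIN1, a phosphatidate phosphatase of triglyceride synthesis, rose from 32.5, 35.3, 41.3 and 35.8 CPM to 48.3, 52.2, 49.01 and 51.1 CPM (log2 change 0.46 ± 0.068). ACSL1 (0.38), which activates fatty acids, ACACA (0.21), the acetyl-CoA carboxylase, ACLY (0.17), the citrate lyase, and ELOVL5 (0.13), an elongase, were also called. FASN, the fatty acid synthase, had a log2 change of 0.20 and was not called (FDR = 0.429).

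Of 16 transcription factors of the luminal lineage, 5 fell and 2 rose (0.948% of all tested genes were called lower and 1.55% higher), and the list median was -0.063. MYB fell from 54.8, 51.03, 64.1 and 55.9 CPM to 45.4, 43.1, 44.2 and 44.4 CPM, without overlap (log2 change -0.36 ± 0.052, FDR = 0.000203). TBX3 (-0.34), SPDEF (-0.23), GATA3 (-0.13) and GRHL2 (-0.11) were the others called lower. The members called higher were both ETS factors, EHF (0.23 ± 0.032) and ELF5 (0.16 ± 0.038), the latter known for its role in milk-producing alveolar cells. EHF read 429.9, 397, 424 and 393 CPM under DMSO and 501, 454, 475 and 494 CPM at 4 h. ESR1, the estrogen receptor gene, and FOXA1 had log2 changes of -0.059 and -0.06 and were not called. Without the block 6 of the 16 were called.

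Estrogen-induced genes did not move as 1 block. Of 49 tested, 8 were called lower (16.3%, against 0.948% of all tested genes) and 4 higher (8.16%, against 1.55%), and the median log2 change was -0.047. The pair medians were 0.036 in replicate 1 and between -0.087 and -0.061 in the other 3. Without the block, 6 of the 49 were called. KCNK5, an acid-sensing potassium channel, fell from 40.6, 35.1, 35.2 and 30.7 CPM to 27.9, 25.8, 23.4 and 26.5 CPM (log2 change -0.45 ± 0.067). OLFM1, a secreted glycoprotein, fell from 45.3, 37.998, 38.7 and 37.4 CPM to 31.6, 27.1, 28.8 and 30.8 CPM (log2 change -0.43 ± 0.062).

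PGR, the progesterone receptor and a classical estrogen target, read 2630.5, 2378, 2879 and 2642 CPM under DMSO and 2355, 2169.5, 2359 and 2401 CPM at 4 h. It was lower in 4 of 4 pairs, but the 2 groups overlapped, and the call rested on the block (log2 change -0.18 ± 0.034, FDR = 0.0047 with it and 0.566 without). MYB, CELSR2 (-0.30), RARA (-0.17), CXCL12 (-0.17) and CCND1 (-0.14) were the others called lower. TPD52L1 (0.28), PDZK1 (0.27), HSPB8 (0.25) and STC2 (0.096) rose. GREB1 and TFF1, both classical estrogen targets, had log2 changes of 0.037 and -0.39 and were not called (FDR = 0.71 and 0.56). Among 25 nuclear receptors described here, RARA and PGR fell (8% of the list, where 0.948% of all tested genes were called lower). The list median was -0.024, and without the block RARA was the 1 called.

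Cell cycle genes called at 4 h were 3 of the DNA replication list, 3 of the G1 list and 1 of the mitosis list. Of 58 DNA replication genes 3 fell (5.17%, where 0.948% of all tested genes were called lower). They were MCM5, a subunit of the replicative helicase, GINS2 and WDHD1, with log2 changes of -0.26, -0.22 and -0.14. None rose, the median was -0.063 and 11 members were above 0. Without the block none of the 58 was called. Of 22 G1 cyclins, kinases and inhibitors 3 fell, 13.6% of the list (CCNE2, CCND1 and the retinoblastoma relative RBL1, by -0.20, -0.14 and -0.15), and without the block none of the 22 was called. Of 56 mitosis genes, 47 had a log2 change above 0 and the median was 0.052, but the 1 called was HMMR (0.15 ± 0.04, FDR = 0.0704), and without the smallest library its FDR was 0.19. None of 54 tested histone genes was called (median 0.05).

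**Figure D3:**
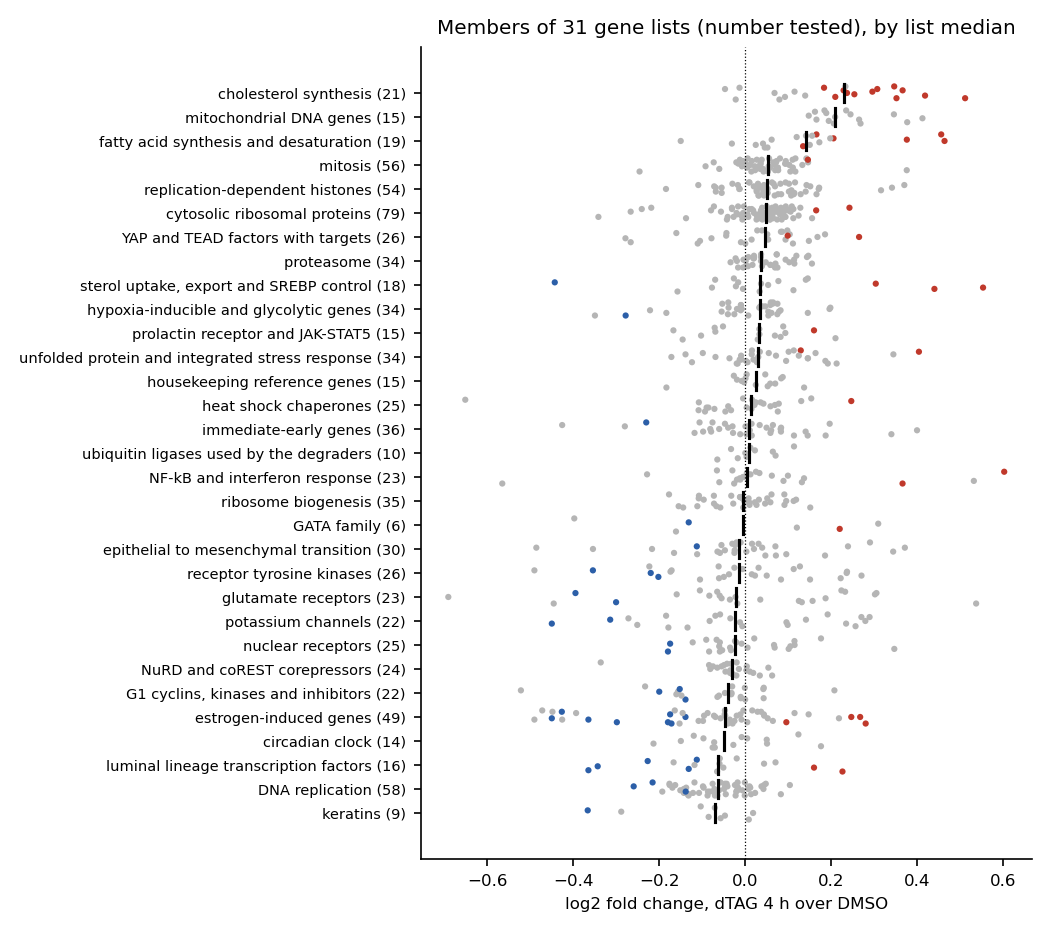
Each point is the log2 fold change of 1 gene at 4 h over DMSO, grouped by gene list with the number tested in parentheses, and the black bar is the list median. Red and blue points were called higher and lower, and cholesterol synthesis, with a median of 0.23, has the highest median of the 31 lists.

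The other lists held 0 to 3 called genes each, where 1.55% of all tested genes were called higher and 0.948% lower. The genes on mitochondrial DNA had the second-highest median (0.21), but none of the 15 was called, the pair medians ran from -0.28 (replicate 2) to 1.05 (replicate 1), and without replicate 1 at 4 h the median was -0.015. Of 79 ribosomal protein genes 2 were called higher (RPL19 and RPL35, by 0.16 and 0.24), and none was without that library. Stress pathways gave 2 of 34 unfolded protein and integrated stress response genes (SLC7A11, the cystine transporter, 0.40 ± 0.10, and SEL1L, 0.13 ± 0.032), 1 of 25 heat shock chaperones (HSPB8) and 1 of 34 hypoxia-inducible genes (P4HA2, lower by -0.28). Of 36 immediate-early genes KLF4 fell (-0.23).

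No gene of the machinery that the degraders use was called. None of 10 ubiquitin ligase genes that dTAG uses and none of 34 proteasome genes passed the test (medians of 0.0076 and 0.038). The same held for 24 NuRD and coREST corepressor genes, 35 ribosome biogenesis genes, 14 circadian clock genes and 15 housekeeping genes, whose medians lay between -0.049 and 0.025. Of 26 receptor tyrosine kinases FGFR1, EPHB3 and EPHA4 fell (-0.35, -0.22 and -0.20). Of 26 YAP and TEAD factors and targets CRIM1 and MYOF rose (0.26 and 0.099). In the NF-kB and interferon list BIRC3 and OAS1 rose at low counts (0.37 and 0.60, 2 of 23). KRT15 was the keratin that fell (-0.37 ± 0.057, 1 of 9), GRHL2 the gene of the epithelial to mesenchymal list (1 of 30) and ELF5 the gene of the prolactin and JAK-STAT5 list that was called (1 of 15). Without the block the calls of FGFR1, CRIM1, HSPB8, KRT15 and ELF5 held, and those of RPL19, RPL35, SLC7A11, SEL1L, P4HA2, KLF4, EPHB3, EPHA4, MYOF, BIRC3, OAS1 and GRHL2 did not.

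Glutamate receptors and potassium channels each held a pair of called genes, all lower. GRIK4, a kainate receptor subunit whose gene spans 477161 bases, read 317, 318, 309.9 and 299 CPM under DMSO and 231, 237, 236 and 243 CPM at 4 h, far apart (log2 change -0.39 ± 0.031, FDR = 5.04e-08). GRIK3 fell by 0.30 ± 0.053, and 23 glutamate receptor genes were tested. KCNMA1, the large-conductance calcium-activated potassium channel, spans 768769 bases and read 154, 151, 159 and 150.2 CPM and then 134, 121, 125 and 117 CPM (log2 change -0.31 ± 0.038). With KCNK5 it made 2 of 22 potassium channel genes. These are 8.70% of the glutamate receptor list and 9.09% of the potassium channel list, where 0.948% of all tested genes were called lower.

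GRIK4 and KCNMA1 were also among the 4 genes that differed between 4 h and 2 h of dTAG (0.0154% of those tested). GRIK4 was lower at 4 h than at 2 h by -0.24 ± 0.031 on the log2 scale (FDR = 0.00204), and KCNMA1 by -0.29 ± 0.038 (FDR = 0.00204). MDGA2, an adhesion molecule of synapses with a span of 835514 bases, was higher at 4 h than at 2 h by 0.19 (FDR = 0.0861), and its rise over DMSO at 4 h was 0.19 ± 0.035 (FDR = 0.00351 with the block and 0.705 without). The fourth gene, SAMD4A, which represses translation, was higher at 4 h than at 2 h by 0.19 (FDR = 0.0261) and was not called against DMSO. An unadjusted p under 0.05 between 4 h and 2 h was reached by 1890 of the 26057 tested genes, where chance gives about 1 in 20.

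By 24 h part of the 4 h pattern was gone. Between 24 h and 4 h, 186 genes were higher and 274 lower at 24 h (1.77% of those tested in both directions together, 0.714% higher and 1.05% lower). With total counts in place of TMM factors 229 were higher and 125 lower, so the lean towards lower transcription at 24 h turned with the scaling. Of the 403 genes called higher at 4 h, 54 were lower at 24 h than at 4 h and 6 higher still. Of the 247 called lower, 59 were higher at 24 h and 2 lower still. The 4 h libraries enter both comparisons, so an error in them adds to both with opposite signs. The 24 h group has 3 libraries, of replicates 2, 3 and 4. It was treated for as long as the DMSO group, unlike the 4 h group. A return towards DMSO by 24 h cannot be told apart from this match in length of treatment.

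Sterol and lipid genes led the falls from 4 h to 24 h among the genes called at 4 h that had 100 or more counts on average. Of the 12 cholesterol synthesis genes called higher at 4 h, 11 were lower at 24 h than at 4 h, and the list median of the difference was -0.23. HMGCS1 differed by -0.43 ± 0.042 (FDR = 8.27e-06), MSMO1 by -0.51 ± 0.066 and INSIG1 by -0.59 ± 0.08. SCD differed by -0.56 ± 0.083, and the noncoding gene OLMALINC, which lies near SCD on chromosome 10, by -0.42 ± 0.04. Over DMSO, the list medians of the cholesterol synthesis genes were -0.0067, 0.057, 0.20, 0.23 and -0.046 at 0.5, 1, 2, 4 and 24 h, all measured against the same 4 DMSO libraries.

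ABCG1 went the other way and was higher at 24 h than at 4 h by 0.51 ± 0.12 (FDR = 0.0331). NOL4L, a nuclear protein, was higher at 24 h by 0.62 ± 0.076, PLXND1 by 0.51 ± 0.091, EBF4, a transcription factor, by 0.50 ± 0.083 and DUSP15 by 0.47 ± 0.086. Against DMSO at 4 h, NOL4L and EBF4 had log2 changes of -0.42 and -0.30. ART4, CCL28, ZNF692, CYP4B1 and VCAN did not pass the test between 24 h and 4 h, with differences between -0.044 and 0.05. Of 56 mitosis genes, of which 1 had been called at 4 h, 44 were lower at 24 h than at 4 h (1.05% of all tested genes were), with a median difference of -0.28.

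**Figure D4:**
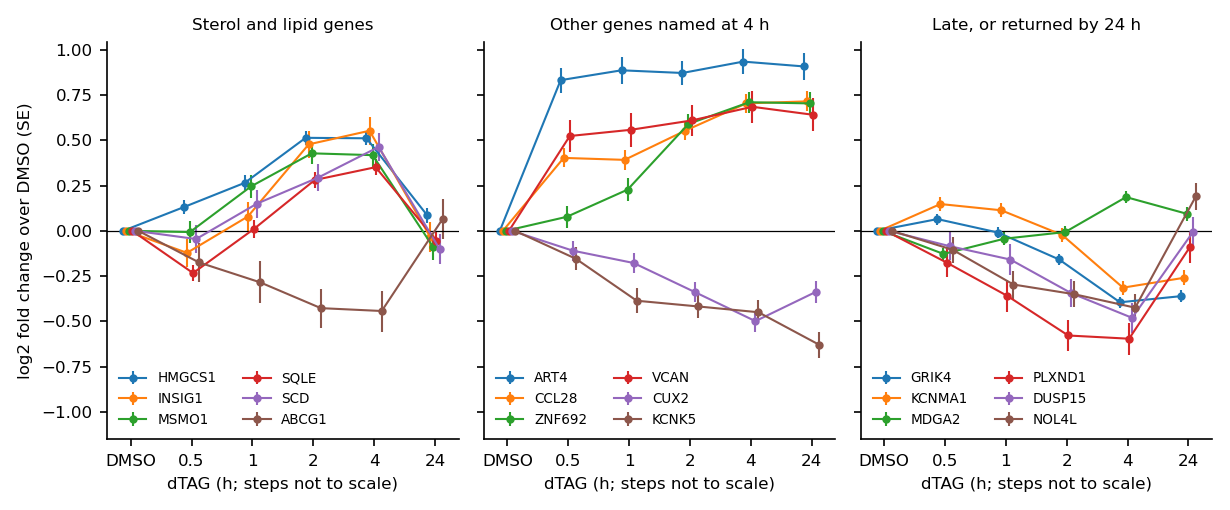
The y axis is the log2 fold change over DMSO and the x axis the hours of dTAG, in steps that are not to scale, and bars are standard errors from the edgeR fit (n = 4 libraries, 3 at 24 h). The rise of HMGCS1, INSIG1, MSMO1, SQLE and SCD at 4 h is back near 0 at 24 h, while ART4, CCL28, ZNF692 and VCAN stay near their 4 h values.

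The share of genes called rose with the length of the gene. Among protein-coding genes with a mean of at least 100 counts, 2.13% of those under 10 kb were called, 2.80% from 10 to 50 kb, 3.87% from 50 to 100 kb, 8.42% from 100 to 500 kb and 13.7% over 500 kb. In the longest class 24 of 233 genes were called higher and 8 lower. Counts moved with length, since the median of the mean counts went from 209 in the shortest class to 858 from 100 to 500 kb and 679 over 500 kb, and the part of depth in these shares was not tested. By type, 3.35% of protein-coding genes, 1.52% of long noncoding RNA genes and 0.492% of pseudogenes were called, with median mean counts of 260.5, 36.3 and 15.8.

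**Figure D5:**
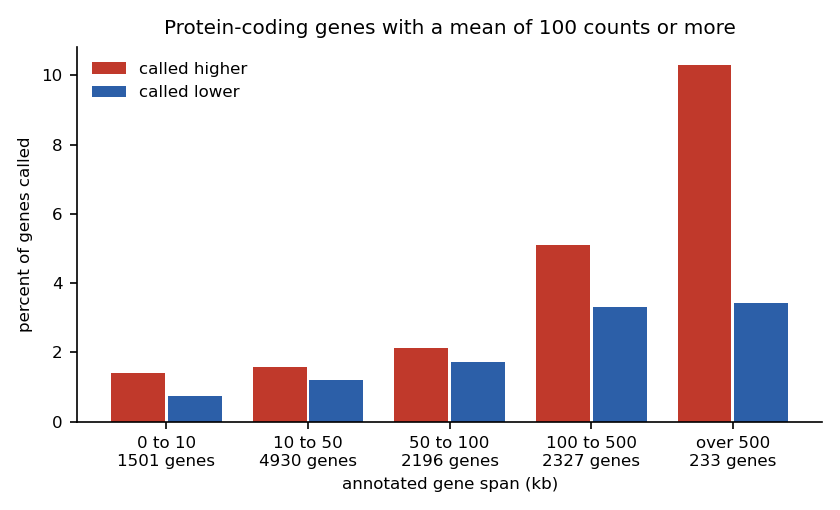
Bars give the percent of tested protein-coding genes with a mean of at least 100 counts that were called higher (red) or lower (blue) at 4 h, by annotated span in kb, with the number of genes in each class under the bars. Both shares are lowest under 10 kb and highest over 500 kb, where 10.3% were called higher and 3.43% lower.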

How the data were processed

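PRO-seq libraries were grouped by title. The deposited values are raw read counts per gene, whole numbers that the authors obtained by removing adapters (cutadapt 1.8.1, per the submitters' processing notes), collapsing duplicates by a random molecular identifier of 8 bases, discarding reads from ribosomal DNA, aligning to hg38 (Bowtie2 2.4.4, SAMtools 1.9) and counting with bedtools. Neither the annotation nor the strand setting of the counting is given in the sources used here. Genes of at least 2 kb nested in a gene of the opposite strand had a median read density of 0.0435 of the host's, against 0.892 on the same strand, so the counting separated strands for most such genes. Reads in genes that overlap on the same strand can be counted for each of them. With duplicates collapsed, counts approach molecules, and smaller libraries give wider errors.

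Counts of all 23 libraries were fitted with edgeR 4.0.16 in R 4.3.3 (quasi-likelihood, TMM factors, filterByExpr with minimum count 10 and minimum total 15, group plus replicate number). Of 60605 genes 26057 were kept, which held 99.6% of the counts of each library. Two-sided p-values were adjusted by Benjamini-Hochberg over all kept genes, and calls are at an FDR under 0.1, the threshold of the study. SE is the log2 change over the square root of F. Same-numbered libraries were collected together, per the labels, and so were treated as pairs. Deviations from the group mean correlated across genes at 0.59, -0.02, 0.53 and 0.24 for replicates 1 to 4. For DMSO replicates 1 and 3 the same-numbered 4 h library gave the highest correlation, and for replicates 2 and 4 another 4 h library did. Libraries of a group differed by more than sampling noise (chi-square per degree of freedom from 2.52 to 44.8). Replicate 1 at 4 h stood apart, at 34.1 to 44.8 against the other 4 h libraries. The remaining 4 h pairs gave 2.52 to 4.11 and the DMSO pairs 2.57 to 14.6. Names, spans and types came from GENCODE release 44 (60463 identifiers matched), and promoters from RefSeq by symbol (14349 of the tested symbols).

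Genes named are TRPS1, the 10 largest rises and falls and the 3 smallest p-values at 4 h, called members of 31 lists (at most 10 each), and the largest later differences (5 in each direction for 24 h, 3 for 2 h), where the ranked genes had 100 or more counts on average and moved in one direction in 4 of 4 pairs. The comparison, the lists and the rule were chosen with earlier results of these data known. Some list members are not reported here and enter no list count. The fit was tested on simulated data, with changes put into genes of at least 100 mean counts. At a 1.2-fold change 32 of 100 such genes were called, and at a 1.5-fold change 99 of 100, with 13 false calls. A 1.2-fold change can thus go uncalled. The simulation gave same-numbered libraries an identical shift per gene and every gene the same spread, so the block held by design. In the deposited data replicate 1 at 4 h stood apart, so these rates may not carry over to them. Alternatives were no replicate block, the 2 groups alone, median-of-ratios factors, total counts, no mitochondrial genes, no low-count filter, DESeq2 1.42.0, an FDR of 0.05, and leaving out each replicate or replicate 1 at 4 h.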

Additional observations from a re-analysis of the deposited data

Results flagged for a closer look

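In groups of 4 libraries, a library was singled out where its gap to the nearest other library passed Dixon's critical value at the 95% level. This happened in 11 of 176 groups of values checked, and chance gives about 1 in 20. Among the DMSO libraries it was replicate 1 for OLFM1 (45.3 CPM), HSPB8 (129.5 CPM) and PDZK1 (226 CPM), each the highest of the 4. It was replicate 2 for CCNE2 (86.8 CPM, the highest) and SREBF2 (87.2 CPM, the lowest) and replicate 4 for IDI1 (61.8 CPM, the lowest). Among the 4 h libraries it was replicate 1, the smallest library, for SCD (219 CPM), SEL1L (211 CPM) and HSPB8 (152 CPM), each the highest, and for BIRC3 (12.8 CPM, the lowest). It was replicate 2 at 4 h for DHCR7 (80.5 CPM, the highest). Without replicate 1 at 4 h the log2 changes of SCD, HSPB8, SEL1L and BIRC3 over DMSO were 0.36, 0.21, 0.11 and 0.39, and SEL1L was no longer called (FDR = 0.147).

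The difference between 24 h and 4 h passed the test for 40 of the 86 genes chosen by the naming rule. Of all tested genes 1.77% passed it. The rule took 5 genes in each direction because they passed this same test, so these could not fail it. Sterol and fatty acid genes that were lower at 24 h than at 4 h, with the log2 difference in parentheses, were INSIG1 (-0.59), STARD4 (-0.58), SCD (-0.56), MSMO1 (-0.51), HMGCS1 (-0.43), SQLE (-0.41), LSS (-0.38), MVK (-0.35), DHCR7 (-0.34), IDI1 (-0.34), FDFT1 (-0.29), CYP51A1 (-0.28), LPIN1 (-0.28), ACSL1 (-0.27), SREBF2 (-0.25), ACACA (-0.24), SC5D (-0.18) and ACLY (-0.13). The other genes lower at 24 h were SLC7A11 (-0.59), OLMALINC (-0.42), HMMR (-0.41), ENSG00000259345 (-0.22), HSPB8 (-0.21), GSTM5 (-0.16), ENSG00000241720 (-0.16) and ELF5 (-0.15). Genes higher at 24 h than at 4 h were RARA (0.13), MYB (0.23), EPHA4 (0.24), TBX3 (0.33), P4HA2 (0.33), FGFR1 (0.36), CAMK2N1 (0.41), NKAIN1 (0.42), DENND3 (0.46), DUSP15 (0.47), EBF4 (0.50), PLXND1 (0.51), ABCG1 (0.51) and NOL4L (0.62), and each of these had been called lower at 4 h. Between 4 h and 2 h, MDGA2 was higher at 4 h (0.19), and GRIK4 (-0.24) and KCNMA1 (-0.29) were lower. The rule had also taken these genes for passing the test between 4 h and 2 h. All these differences come from edgeR's quasi-likelihood test of the contrast between the 2 times, at an FDR under 0.1. The 4 h libraries enter each of them as well as the comparison with DMSO that the naming rule also used.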

How the results depend on the processing

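The 4 h against DMSO count was 650 genes. Without the replicate block it was 217, and with the 2 groups fitted alone, with the block, it was 142 (142 of them among the 650), where fewer libraries estimate the spread. Leaving out all libraries of 1 replicate number gave 268 to 815 genes, with 268, 277 and 280 without replicates 2, 3 and 4. Counts under the other settings stayed within 1.5 times of 650, from 445 at an FDR of 0.05 to 876 without the low-count filter, with 614 by DESeq2. The 24 h against 4 h count of 460 became 118 without the replicate block, 990 with those 2 groups alone, 947 without the low-count filter and 283 at an FDR of 0.05, and 77 to 583 with 1 replicate left out (112, 77 and 159 without replicates 2, 3 and 4). The 4 h against 2 h count of 4 became 2 without the replicate block, 2 with total counts only, 2 without replicate 1 at 4 h, 40 by DESeq2 and 584 without the low-count filter. It was 0 by edgeR with those 2 groups alone and 0 to 2 with 1 replicate left out. For these differences the cause was not tested. The split of calls moved from 62% higher to 44.4% with total counts, 48.1% without replicate 1, 75.1% without replicate 3 and 79.6% with the 2 groups alone, and that of 24 h against 4 h from 186 higher and 274 lower to 229 and 125 with total counts. The mitochondrial share differed by -0.221 to 1.09 percentage points with 1 pair left out, and its sign turned without replicate 1.

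Of 1032 values of the 86 named genes under 12 settings, 820 kept their direction and their side of the threshold. The other 212 lost the call with the same direction, and 0 changed sign. The genes were chosen by their values in these same libraries, so a change of sign was unlikely from the start. Of the 86, 44 lost the call with the 2 groups fitted alone, 35 without the replicate block, 33, 31, 28 and 9 without replicates 2, 3, 4 and 1, and 9 without replicate 1 at 4 h. List medians moved by less than the spread between pairs in 344 of 371 cases. The smallest library, with 4408540 counts, gives the widest counting error per gene.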

Other observations

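Outside the lists and the naming rule, some called genes with under 100 mean counts had larger fitted changes, and they were chosen here after their values were seen. HSD17B11, a dehydrogenase of lipid droplets, read 1.28, 0.96, 1.29 and 1.61 CPM under DMSO and 2.66, 3.77, 2.66 and 2.72 CPM at 4 h (log2 change 1.19 ± 0.24, FDR = 0.0086). CPN1, a subunit of carboxypeptidase N, read 2.56, 2.06, 2.36 and 2.12 CPM and then 2.39, 4.73, 3.76 and 4.99 CPM (FDR = 0.0329). SCNN1G, a subunit of the epithelial sodium channel, read 1.42, 1.10, 1.22 and 1.21 CPM and then 0.531, 0.29, 0.548 and 0.635 CPM (FDR = 0.071). At these levels a library holds few counts per gene. For ENSG00000259678, a noncoding gene on chromosome 15, replicate 1 alone was high in both groups (154, 8.23, 2.29 and 0.806 CPM under DMSO and 26.6, 2.22, 2.11 and 1.72 CPM at 4 h), and its call (FDR = 0.0951) was lost without the replicate block (FDR = 0.674).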
